A study of Drosophila melanogaster with 8 samples.

Results

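The Drosophila melanogaster cell line L2 was compared with the cell line CL8 on Affymetrix DrosGenome1 arrays, which measure RNA with sets of short probes. The comparison took 5 of the 8 arrays of the study, the 1 array titled L2 and the 4 titled CL8, and all 13966 probe sets other than the controls. The remaining 3 arrays held RasV12, an embryo-derived line that expressed an oncogenic form of Ras and was profiled at passage 12. No transgene, treatment, tissue or passage is given for L2 or CL8, each of which is a single line. Cells of all 3 lines were at 70% confluence, and the RNA of each array came from a T-flask of its own. L2 has no replicate, so every test assumed that L2 varies like the other lines, and p-values measure the spread between flasks and arrays only.

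Continuously growing Drosophila lines carry no intact tissue, but each keeps a set of transcription factors, receptors and secreted proteins that reflects the cells it grew from and its time in culture. A line known as clone 8 comes from wing imaginal discs, the larval epithelia that form the wing, and is much used to study the Hedgehog pathway. The labels do not say whether CL8 is that line. Imaginal disc cells are patterned by Hedgehog, by Dpp, the fly's BMP, and by homeobox genes, while hemocytes, the blood cells of the fly, secrete much of the basement membrane and take part in immune defence.

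The arrays of both lines were strongly correlated, and the L2 array had a higher floor and a lower upper end of its values. Pearson correlations across probe sets, which are not independent replicates, were 0.946 to 0.952 between L2 and each CL8 array and 0.992 to 0.998 between CL8 arrays. The upper quartile of the log2 values stood at 8.32 for L2 and at 8.96 to 8.99 for CL8. The highest of 23 background controls, which detect transcripts of other species, read 4.04 on the L2 array and 2.98 to 3.41 on the CL8 arrays. The middle 18S ribosomal RNA control read 5.88 on L2 and 9.50 to 15.33 on CL8, and the difference between the 3′ and 5′ ends of the actin control was 0.82 on L2 and 0.50 to 1.62 on CL8. The part of these array differences in the gene differences was not tested. A gene within the range of the controls is called within the controls below, and differences are given on the deposited values and, where so named, after quantile normalization of all 8 arrays, called rescaled.

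Of 10844 genes, each read from its brightest probe set, 172 were at least 4-fold higher in L2 and 284 at least 4-fold lower. These large differences had to be called by limma (adjusted p under 0.05), reach 2 on the log2 scale on both scales, lie outside the range of all 4 CL8 arrays on both scales, and have the brighter line above the controls. They made up 4.21% of all genes, 1.59% for higher and 2.62% for lower. The looser criteria set few genes apart, since L2 lay outside the CL8 range for 88.5% of genes and limma called 8636 of the 13966 probe sets (61.8%). The split of the limma calls depended on the scale, with 61.9% of them higher in L2 on the deposited values, 53.7% rescaled, 44.2% among probe sets above the controls and 12.9% with arrays centred on their medians. Among the large differences, 63 genes were higher and 65 lower by at least 4 on the log2 scale. In 19 of the higher genes every CL8 array lay within the controls, and in 63 of the lower genes the L2 array did.

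**Figure D1:**
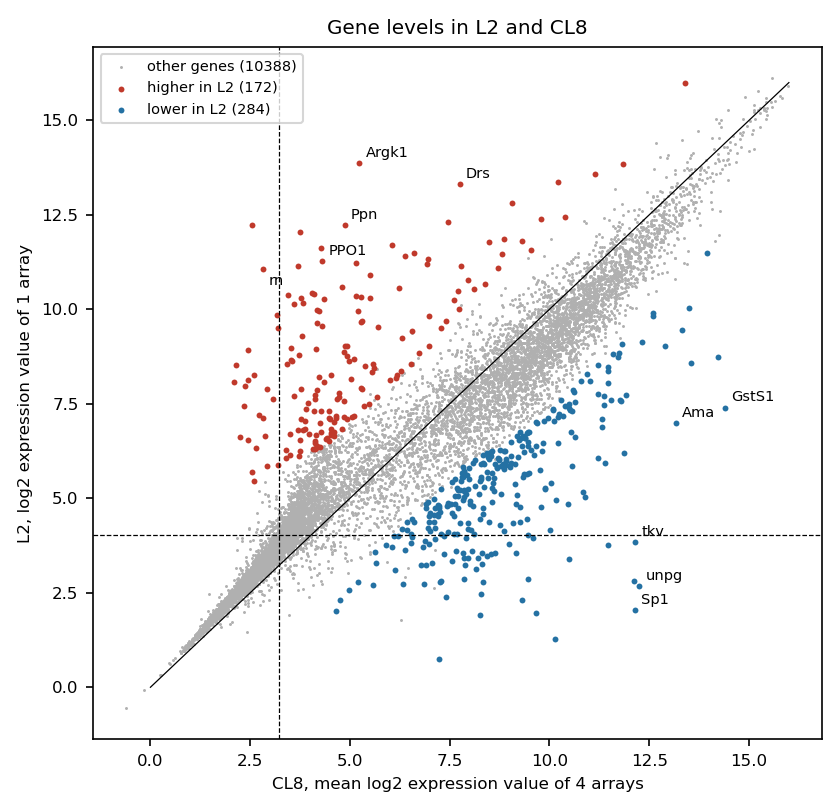
Log2 expression value of each gene in L2 (vertical axis, 1 array) against its mean over 4 CL8 arrays (horizontal axis), with the 172 large differences higher in L2 in red and the 284 lower in L2 in blue. The diagonal marks equal values and the dashed lines the highest background control (for CL8 its mean over the arrays), and bright genes lie mostly under the diagonal, as does the median of genes above the controls in both lines (-0.28).

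The genes with the largest differences towards L2 included those of an energy enzyme, a disc transcription factor, matrix proteins and a blood cell enzyme. Argk1, which encodes arginine kinase, an enzyme that buffers ATP, read 13.86 on the L2 array and 4.94, 5.06, 5.08 and 5.85 on CL8 arrays 1 to 4. The log2 difference was 8.63 ± 0.31 (SE here and below), and 8.60 rescaled (limma adjusted p = 1.49e-06). The second probe set of Argk1 did not pass, at 4.12 in L2 and 3.59 ± 0.26 (SD, n = 4) in CL8. The zinc finger gene rn (rotund), which patterns the middle of the leg and wing discs, read 11.08 in L2 and 2.74, 2.82, 2.84 and 2.83 in CL8, where all 4 arrays lay within the controls. This difference was at least 232-fold (limma adjusted p = 1.68e-06), and all 4 of its probe sets, 1 of them within the controls, were higher in L2, by 2.09 to 8.27.

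Ppn, which encodes the extracellular matrix protein papilin, read 12.23 in L2 and 4.82, 5.06, 4.80 and 4.80 in CL8. Its difference was 7.35 ± 0.14 (7.48 rescaled, limma adjusted p = 6.72e-08), and its second probe set was also higher, by 2.70. PPO1, a prophenoloxidase gene of crystal cells, the blood cells that start melanin formation, read 11.28 in L2 and 4.19, 4.35, 4.36 and 4.34 in CL8. It was higher by 6.97 ± 0.13 (7.16 rescaled, limma adjusted p = 6.72e-08). That L2 lay above every CL8 array for these 4 genes follows from the rule for large differences.

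RasV12 was on the side of L2 for some of these genes and on the side of CL8 for others. Argk1 read 10.57 to 10.67 on the RasV12 arrays and Ppn 10.37 to 10.51, whereas rn read 2.77 to 3.79 and PPO1 3.54 to 3.74. Tig, which encodes the integrin ligand tiggrin, read 10.43 in L2, 3.52 to 4.42 in CL8 and 11.31 to 11.33 in RasV12. Tig was higher in L2 than in CL8 by 6.38 (6.59 rescaled, limma adjusted p = 3.8e-06).

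Nplp2, a neuropeptide-like precursor gene, read 11.63 in L2 and 4.01, 6.31, 3.43 and 3.36 in CL8. It was higher by 7.35 ± 0.97 (7.52 rescaled, limma adjusted p = 0.000741), with the largest spread over CL8 arrays among the genes of largest difference. Against CL8 arrays 1 and 2 alone the Nplp2 difference was 6.47, and against arrays 3 and 4 alone it was 8.23. The cytochrome P450 gene Cyp6a23 read 10.37 in L2, 3.19 to 3.55 in CL8 and 8.97 to 9.27 in RasV12. ATP8B, which encodes a phospholipid flippase, read 9.84 in L2 and 3.04 to 3.32 in CL8, where 1 of 4 arrays was above the controls. L2 was above every CL8 array in each case, as the rule requires.

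Msr-110 read 10.14 in L2 and 3.52 to 3.70 in CL8, a difference of 6.55 (6.76 rescaled). COX4L, which encodes a relative of a cytochrome c oxidase subunit, differed by 6.52 (6.71 rescaled), and the chloride channel gene ClC-a by 6.29 (6.49 rescaled). The 2 other probe sets of ClC-a lay within the controls in both lines. Ugt317A1, a UDP-glycosyltransferase gene, differed by 6.33 (6.54 rescaled), with 3 of 4 CL8 arrays above the controls. Of the genes known by a number, CG6836 read 12.22 in L2 and 2.34 to 2.63 in CL8, at least 512-fold higher, and CG4259 read 12.04 and 3.47 to 4.01.

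Towards CL8 the largest differences included transcription factor, receptor and enzyme genes that were bright in CL8, most but not all of them within the controls in L2. Sp1, a zinc finger gene that promotes leg growth, read 2.04 in L2 and 12.01, 11.55, 12.50 and 12.52 on CL8 arrays 1 to 4, and was at least 276-fold lower in L2 (limma adjusted p = 1.14e-06). The homeobox gene unpg read 2.68 in L2 and 11.85, 11.79, 12.72 and 12.65 in CL8, at least 297-fold lower (limma adjusted p = 1.87e-06). Cyp6w1, a cytochrome P450 gene, read 2.82 in L2 and 12.44, 12.59, 11.75 and 11.70 in CL8, at least 271-fold lower. The RasV12 arrays were as dim as L2 for these 3 genes, at 1.67 to 1.91, 2.06 to 2.22 and 2.77 to 2.99.

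GstS1, which encodes the sigma class glutathione S-transferase, was among the brightest transcripts of CL8, at 14.41, 14.04, 14.69 and 14.50, and read 7.40 in L2. Its log2 difference was -7.01 ± 0.21, and -6.57 rescaled (limma adjusted p = 7.02e-07). Ama, which encodes the secreted adhesion protein amalgam, read 6.999 in L2 and 13.11, 13.34, 13.20 and 13.01 in CL8. Its difference was -6.16 ± 0.18 (-5.74 rescaled, limma adjusted p = 5.39e-07). Both genes were still above the controls in L2.

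DptB, a diptericin gene of the antibacterial response, read 3.40 in L2 and 9.77, 11.10, 10.51 and 10.55 in CL8, at least 87.0-fold lower. Rbp4, an RNA-binding protein gene, was at least 18.5-fold lower, at 1.92 in L2 and 7.64 to 8.87 in CL8. Ctns, which encodes the lysosomal cystine transporter, read 4.17 in L2 and 9.49 to 10.62 in CL8, a difference of -5.84 (-5.97 rescaled). Nepl19, a neprilysin-like peptidase gene, differed by -5.66 (-5.85 rescaled). CG11585 was at least 68.8-fold lower and CG42565 at least 173-fold lower. The Dpp receptor gene tkv, the cytokine receptor gene dome and the Hedgehog receptor gene ptc, which complete the 12 largest named genes in this direction, are described with their pathways.

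**Figure D2:**
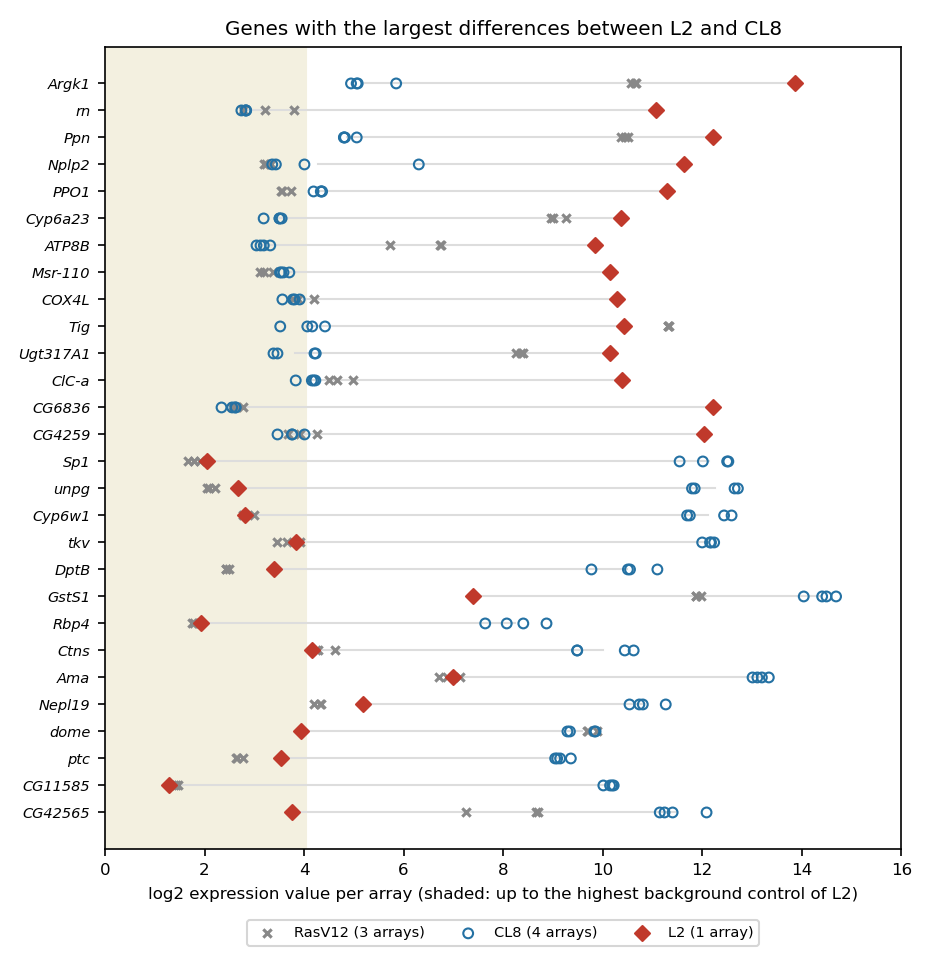
Log2 expression value per array (horizontal axis) of the 14 genes with the largest difference in each direction, for L2 (red diamond, 1 array), CL8 (open circles, 4 arrays) and RasV12 (crosses, 3 arrays), with the range up to the highest control of L2 (4.04) shaded and a grey line from the CL8 mean to L2. The L2 value lies outside the CL8 arrays for every gene shown, as the rule for large differences requires.

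Markers of blood cells were measured in both lines. This list and those below were chosen with earlier results of these data known, so their shares beside all genes describe them and test nothing. Of 19 hemocyte genes, 3 (15.8%) were at least 4-fold higher in L2 and 1 (5.26%) lower, against 1.59% and 2.62% of all genes. By limma, 8 (42.1%) were called higher and 2 (10.5%) lower on both scales, against 15.4% and 13.2% of all genes. The median difference of the hemocyte genes was 0.70 (0.68 rescaled), against 0.25 (0.0086 rescaled) over all genes, and their mean level was 9.61 in L2 and 8.66 to 8.77 on the CL8 arrays. Beside Ppn and Tig, Glt, which encodes the matrix protein glutactin, was higher, at 9.49 in L2 and 6.73 to 7.53 in CL8 (2.21, and 2.79 rescaled, limma adjusted p = 0.00079). In bulk RNA, fewer cells of a type and less RNA per cell cannot be told apart.

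The phagocytic receptor gene eater went the other way. It read 7.57 in L2, 11.81, 11.97, 11.83 and 11.61 in CL8 and 5.56 to 6.59 in RasV12, and was lower in L2 than in CL8 by 4.24 ± 0.35 (-3.69 rescaled, limma adjusted p = 8.5e-05). Some defining hemocyte genes were bright in both lines. The GATA factor gene srp read 11.88 in L2 and 11.71 to 12.08 in CL8, and the growth factor receptor gene Pvr read 13.54 and 13.43 to 13.60. L2 lay inside the CL8 range for both. The adhesion gene Hml and the receptor gene NimC1, markers of mature plasmatocytes, were close to the controls, at 4.30 and 4.65 in L2 and up to 3.60 and 3.87 in CL8.

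PPO1 was the 1 large difference among 10 genes of crystal cells and lamellocytes, of which 4 were called higher and 0 lower on both scales (15.4% and 13.2% of all genes). That 1 gene was 10.0% of the list, against 1.59% of all genes higher. lz, the transcription factor gene that specifies crystal cells, read 5.86 in L2 and 3.72 to 4.22 in CL8, higher by 1.82 (1.45 rescaled, limma adjusted p = 0.000552). The other prophenoloxidase genes were at or near the controls, PPO2 at 4.12 in L2 and PPO3 at 2.50. The mean level of the list was 6.38 in L2 and 4.97 to 5.31 on the CL8 arrays.

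Among genes that pattern the imaginal discs, 3 of the wing list had large differences towards L2 and Sp1 of the leg list towards CL8. rn, filed in the wing list, also patterns the leg disc, so these lists do not set wing against leg. Of 21 wing disc genes, rn, zfh2 and nub (14.3%) were at least 4-fold higher in L2 and 0 were lower, against 1.59% and 2.62% of all genes. On both scales 6 (28.6%) were called higher and 1 (4.76%) lower, against 15.4% and 13.2% of all genes. zfh2, a zinc finger homeobox gene of the wing hinge, read 6.71 in L2, 3.05, 4.17, 3.68 and 3.12 in CL8 and 6.41 to 6.94 in RasV12, higher in L2 by 3.21 (3.21 rescaled, limma adjusted p = 0.000631). nub, a POU domain gene of the wing pouch, read 6.66 in L2 and 3.94 to 4.29 in CL8, higher by 2.50 (2.52 rescaled, limma adjusted p = 3.94e-05). The other zfh2 probe set differed by 1.57 (1.57 rescaled), and those of nub by 1.84 (1.69 rescaled) and 0.42 (0.007 rescaled), none a large difference. The mean over the nub probe sets was 1.59, under the 4-fold size. Selector genes of the wing such as vg (4.53 in L2, 3.54 to 3.95 in CL8) and ap (4.70 and 4.15 to 4.94) were near the controls in both lines, so that neither line showed the full marker list of that tissue. dpp, the BMP ligand gene, read 7.48 in L2 and 4.83 to 5.87 in CL8, higher by 1.97 (2.21 rescaled), just under the size of a large difference.

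Sp1 was the 1 large difference, towards CL8, among 15 genes of leg and antenna patterning, and the list's median difference was 0.20 (-0.12 rescaled). Sp1 was 6.67% of the list, against 2.62% of all genes lower. The appendage genes Dll and dac lay within the controls on every array of both lines, at 2.18 and 1.45 in L2. Beside Sp1, 2.04 in L2 against 11.55 to 12.52 in CL8, tio was the only further leg gene called on both scales, with a difference of -0.79 (-1.23 rescaled).

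The Hox genes lab, Ubx, abd-A and Abd-B are not analysed here, so no Hox profile of either line was read. Of 11 Hox and axial homeobox genes, Scr was at least 4-fold higher in L2, Antp and unpg were lower and 8 had no large difference. The shares higher and lower were 9.09% and 18.2%, against 1.59% and 2.62% of all genes. Antp, the Hox gene of the thorax, read 6.06 in L2, 11.51, 11.18, 11.14 and 11.06 in CL8 and 4.46 to 4.98 in RasV12. Its difference was -5.16 ± 0.23 (-5.0004 rescaled, limma adjusted p = 4e-06), while its second probe set lay within the controls in both lines. Scr, the Hox gene of the segment in front of it and of the labium, read 7.75 in L2, 3.88, 4.09, 4.16 and 4.34 in CL8 and 3.29 to 3.57 in RasV12. It was higher in L2 by 3.63 ± 0.18 (3.76 rescaled, limma adjusted p = 7.55e-06). Scr was brightest in L2, and Antp and unpg were brightest in CL8.

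In the mesoderm list, twi and htl stood well above the CL8 arrays in L2 and were also bright in RasV12. twi, the transcription factor gene that specifies mesoderm, read 7.12 in L2, 2.68, 3.20, 2.71 and 2.71 in CL8 and 9.07 to 9.52 in RasV12. All CL8 arrays lay within the controls, and the L2 level was at least 14.9-fold higher (limma adjusted p = 1.37e-05). htl, which encodes the FGF receptor of the mesoderm, read 10.32 in L2, 4.95, 5.46, 5.32 and 5.34 in CL8 and 11.27 to 11.50 in RasV12, higher in L2 than in CL8 by 5.05 ± 0.20 (5.35 rescaled, limma adjusted p = 1.98e-06). Of 15 mesoderm genes, 4 (26.7%) were called higher and 0 lower on both scales, against 15.4% and 13.2% of all genes. The myogenic factor gene nau was among them, at 5.43 in L2 and 2.71 to 3.05 in CL8, and sna, another early mesoderm gene, read 3.08 in L2, within the controls.

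**Figure D3:**
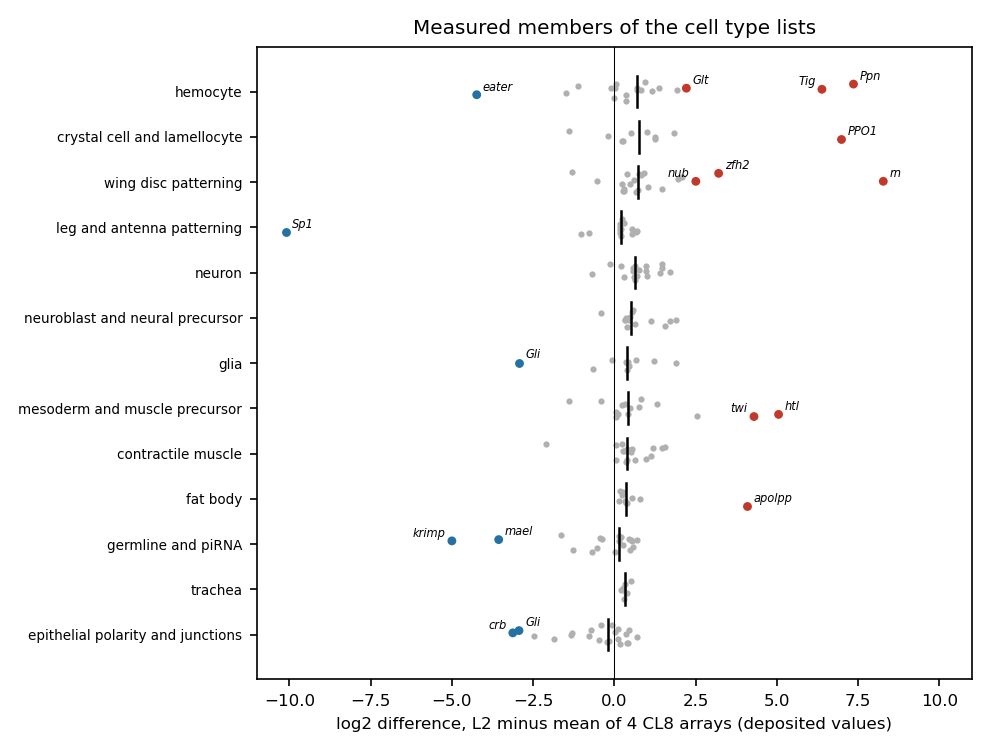
Log2 difference, L2 minus the mean of 4 CL8 arrays, on deposited values (horizontal axis) for each measured gene of the 13 cell type lists, with large differences in red (higher in L2) or blue (lower), other genes in grey and a black bar at each list's median. Most genes of every list lie between -2 and 2, and the named genes stand apart one by one.

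Other tissue lists had 0 to 2 large differences each. In the fat body list, apolpp, which encodes the lipid carrier apolipophorin, read 7.70 in L2 and 3.18 to 4.05 in CL8, higher by 4.09 (4.23 rescaled, limma adjusted p = 3.51e-05), while the storage protein gene Lsp2 and the yolk protein gene Yp1 lay within the controls in both lines. The second apolpp probe set, above the controls in both lines, differed by 1.01 (0.33 rescaled), not a large difference. Of 19 germline and piRNA genes, krimp and mael, both of the piRNA pathway that silences transposons, were at least 4-fold lower in L2. This was 10.5% of the list, against 2.62% of all genes. krimp read 4.45 in L2, 8.91 to 9.76 in CL8 and 8.61 to 9.06 in RasV12 (-4.9998, and -5.18 rescaled, limma adjusted p = 2.99e-05). mael read 6.26 in L2 and 9.69 to 10.00 in CL8 (-3.56, and -3.27 rescaled). The germline gene vas was within the controls in L2, and aub, another piRNA gene, read 7.90 in L2 and 7.65 to 8.25 in CL8.

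Epithelial genes were nearly all measured in both lines. Of all 10844 genes 6940 were above the controls in both, so the shares of all genes are not those of an equally bright group. Of 22 genes of polarity and junctions, all above the controls in both, 2 (9.09%) were at least 4-fold lower in L2, against 2.62% of all genes. On both scales 6 (27.3%) were called lower and 1 (4.55%) higher, against 13.2% and 15.4% of all genes. crb, which encodes the apical determinant Crumbs, read 6.09 in L2 and 9.18, 9.36, 9.31 and 9.03 in CL8 (-3.13, and -2.95 rescaled, limma adjusted p = 5.42e-05). Gli, which encodes the tricellular junction protein gliotactin and is also on the glial list, read 5.99 in L2, 8.66 to 9.21 in CL8 and 11.22 to 11.44 in RasV12 (-2.94, and -2.80 rescaled). The glial master gene repo was within the controls in L2. shg, the E-cadherin gene, read 7.14 in L2 and 6.66 to 6.89 in CL8 and was not called.

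Beside 1.59% of all genes higher and 2.62% lower, the neuron, neuroblast, contractile muscle and tracheal lists held 0 large differences. Their 2 brightest members were Csp (11.50 in L2, 11.96 to 12.49 in CL8) and unc-13 (8.68, 7.60 to 8.29) for neurons, and brat (11.24, 10.17 to 11.47) and D (6.34, 4.83 to 5.42) for neural precursors. For contractile muscle they were the actin genes Act87E (13.68, 13.24 to 13.60) and Act79B (10.94, 10.64 to 11.15). The tracheal genes verm (3.64) and serp (3.46) lay within the controls in L2. The synaptic gene nSyb was also within the controls in both lines, at 2.93 in L2.

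In the Hedgehog list of 15 genes, ptc, which encodes the Hedgehog receptor and is itself a target of the pathway, read 3.54 in L2, 9.36, 9.05, 9.09 and 9.15 in CL8 and 2.63 to 2.77 in RasV12. Its L2 level was within the controls and at least 34.8-fold lower (limma adjusted p = 2.79e-07). The co-receptor gene ihog was lower by 2.10 (-1.99 rescaled), just short of 4-fold on the rescaled values. ci, the transcription factor gene of the pathway, read 10.29 in L2 and 11.15 to 12.10 in CL8, and smo, its signal transducer, read 8.77 and 9.32 to 9.66. Both were called on the deposited values and neither when rescaled.

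The BMP list had large differences in tkv, Dad and tok among 20 genes. tkv, the type I receptor gene, read 3.84 in L2 and 12.24, 12.00, 12.18 and 12.16 in CL8 on its brightest probe set, at least 275-fold lower (limma adjusted p = 1.4e-07), and 3.46 to 3.93 in RasV12. Its second probe set was higher in L2, at 7.47 against 5.46 ± 0.89 (SD, n = 4), by 2.01 (2.29 rescaled, limma adjusted p = 0.0263). No direction therefore holds for tkv as a whole. Dad, which encodes the inhibitory Smad induced by BMP signals, read 4.34 in L2, 7.42 to 8.31 in CL8 and 5.91 to 6.34 in RasV12 (-3.40, and -3.63 rescaled, limma adjusted p = 0.000172). tok, which encodes a tolloid-type protease, read 8.63 in L2, 4.52 to 5.48 in CL8 and 14.43 to 14.53 in RasV12 (3.65, and 3.91 rescaled, limma adjusted p = 7.53e-05). The other type I receptor gene of the pathway, sax, read 9.47 in L2 and 9.86 to 10.17 in CL8.

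In the JAK-STAT list of 8 genes, the receptor and a receptor-like gene went opposite ways. dome, which encodes the cytokine receptor Domeless, read 3.95 in L2, 9.29, 9.34, 9.83 and 9.86 in CL8 and 9.68 to 9.90 in RasV12, and was at least 46.6-fold lower in L2 (limma adjusted p = 3.67e-06). et, which encodes a short receptor that dampens the pathway, read 6.55 in L2, 2.64, 2.37, 2.40 and 2.42 in CL8 and 2.35 to 2.55 in RasV12, at least 9.99-fold higher (limma adjusted p = 1.29e-06). The second dome probe set lay within the controls in both lines. Stat92E, the transcription factor gene of the pathway, read 12.93 in L2 and 12.72 to 13.02 in CL8, inside the CL8 range.

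Of 9 FGF and PVR genes, 2 (22.2%) were at least 4-fold higher in L2 and 0 lower, against 1.59% and 2.62% of all genes. Differences in the list ran from -1.96 to 5.05. Beside htl, Pvf3, which encodes a ligand of the receptor Pvr, read 7.11 in L2, 4.64, 4.32, 4.62 and 4.42 in CL8 and 6.03 to 7.06 in RasV12, higher in L2 than in CL8 by 2.61 (2.71 rescaled, limma adjusted p = 0.00064). A second of its 4 probe sets was also at least 4-fold higher. Pvr itself lay inside the CL8 range.

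Among 12 targets and feedback genes of Ras signalling, Mkp3, which encodes a phosphatase that inactivates MAP kinase, read 10.90 in L2, 5.90, 4.50, 5.47 and 6.15 in CL8 and 10.08 to 10.33 in RasV12. It was higher in L2 than in CL8 by 5.39 ± 0.52 (5.74 rescaled, limma adjusted p = 0.000167). Its second probe set read 4.52 in L2 and 6.26 ± 2.42 (SD, n = 4) in CL8 and was not called. aos, a secreted EGF receptor antagonist, was called higher by 1.95 (2.43 rescaled, limma adjusted p = 0.0274). The other 2 members called on both scales were lower, with differences of -2.48 (-1.90 rescaled) for ed and -1.599 (-0.94 rescaled) for the cyclin gene CycD, and the list's median difference was -0.32 (0.08 rescaled). Calls on both scales were 16.7% higher and 16.7% lower, near the 15.4% and 13.2% of all genes. Large differences made up 8.33% of the list higher and 0.0% lower, against 1.59% and 2.62% of all genes. Ets21C, an ETS factor gene, read 2.64 in L2 and 7.17, 2.93, 9.11 and 9.25 in CL8, a spread so wide that its difference of -4.47 was not called (limma adjusted p = 0.0873). In the EGFR, Ras and MAP kinase list itself 0 of 12 genes had a large difference, and spi, the main EGF receptor ligand, read 11.66 in L2 and 11.08 to 11.53 in CL8, while the adaptor gene drk read 10.61 and 10.41 to 10.92.

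In the Notch list of 18 genes, fng, which encodes the glycosyltransferase that tunes Notch to its ligands, read 5.24 in L2, 9.44, 9.55, 10.26 and 10.27 in CL8 and 11.73 to 11.94 in RasV12 (-4.64, and -4.80 rescaled, limma adjusted p = 4.4e-05). E(spl)mbeta-HLH, a transcriptional target of Notch, read 10.78 in L2 and 7.30 to 8.46 in CL8, higher by 2.81 (3.39 rescaled, limma adjusted p = 0.00121). A total of 6 members (33.3%) were called higher and 4 (22.2%) lower on both scales, against 15.4% and 13.2% of all genes. The gene of the receptor and its ligand genes Dl and Ser are not analysed here.

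The JNK list and the Toll and Imd list had few large differences, in adaptor genes and a kinase gene. Of 13 JNK genes, 1 (7.69%) was at least 4-fold higher and 1 (7.69%) lower. Of 25 Toll and Imd genes, 1 (4%) was at least 4-fold higher and 2 (8%) lower. Over all genes these shares were 1.59% and 2.62%. On both scales 3 JNK genes were called higher and 2 lower, and 2 Toll and Imd genes higher and 4 lower. Such calls made up 15.4% and 13.2% of all genes. Traf6 was lower, at 4.15 in L2 and 7.84 to 8.26 in CL8 (-3.88, and -4.06 rescaled, limma adjusted p = 2.62e-06), and Traf4 was higher, at 11.10 in L2, 8.08 to 9.18 in CL8 and 11.28 to 11.46 in RasV12 (2.40, and 3.01 rescaled, limma adjusted p = 0.00148). Both encode adaptors of the same family. In the Toll and Imd list of 25 genes, the kinase gene pll read 5.74 in L2 and 9.50 to 9.91 in CL8 (-4.02, and -4.001 rescaled), and Tab2, an adaptor gene of the kinase Tak1, differed by -3.26 (-2.68 rescaled). imd, the adaptor gene of the Imd pathway, read 7.67 in L2 and 4.55 to 4.93 in CL8 (2.94, and 3.12 rescaled). The second imd probe set, above the controls in both lines, differed by 0.75 (0.13 rescaled), not a large difference.

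The antimicrobial peptide genes measured gave opposite large differences in DptB and Drs. Drs, which encodes the antifungal peptide drosomycin, read 13.32 in L2, 8.39, 9.37, 6.41 and 6.84 in CL8 and 7.24 to 7.26 in RasV12. It was higher in L2 by 5.57 ± 0.96 (5.89 rescaled, limma adjusted p = 0.0026). The size rested on the CL8 arrays taken, at 4.44 against arrays 1 and 2 and 6.70 against arrays 3 and 4. DptB, at 3.40 in L2 and above 9 on every CL8 array, went the other way, and the other 6 of 8 peptide genes had no large difference. The shares higher and lower were 12.5% and 12.5%, against 1.59% and 2.62% of all genes.

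**Figure D4:**
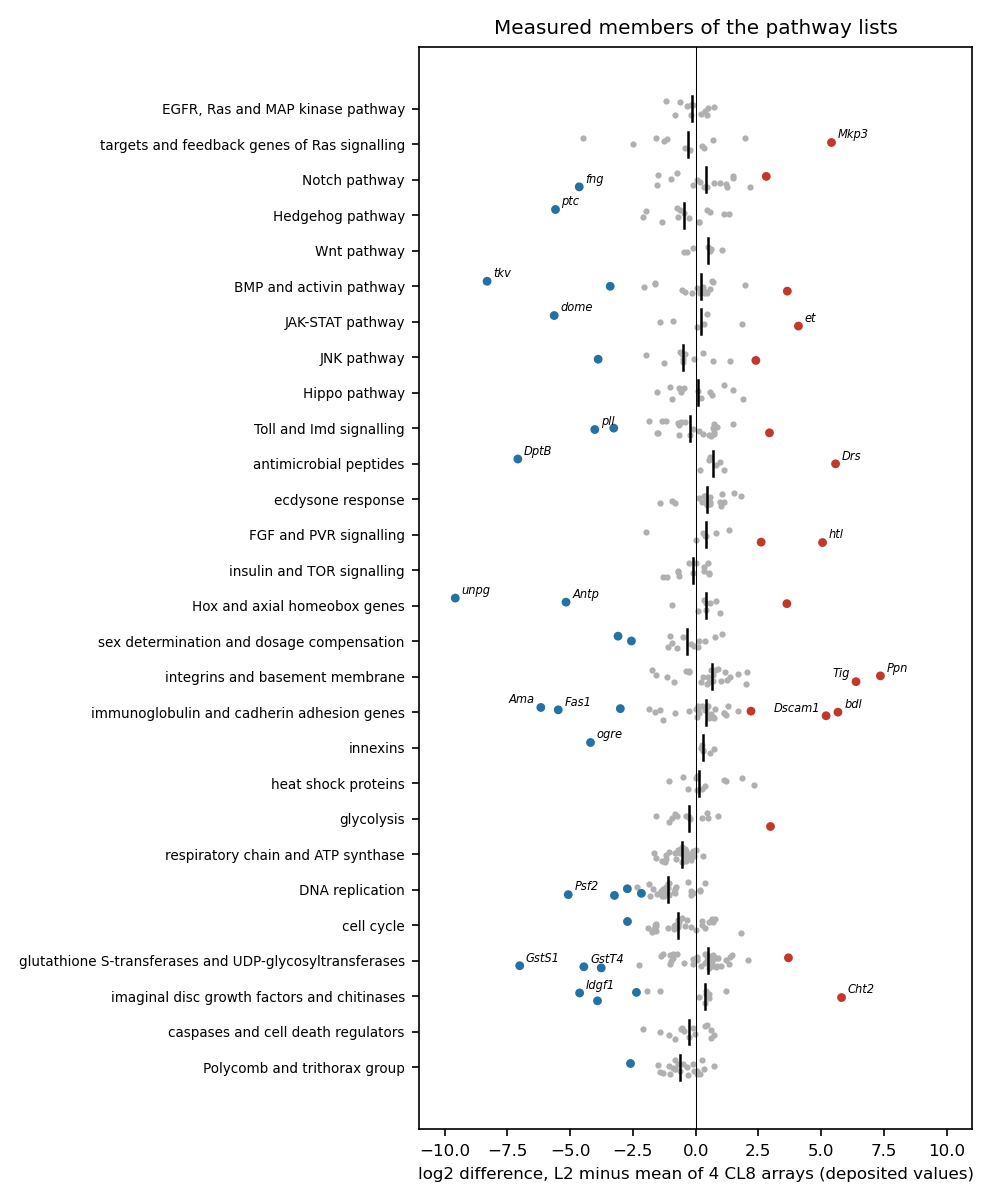
Log2 difference, L2 minus the mean of 4 CL8 arrays, on deposited values (horizontal axis) for each measured gene of the 28 pathway lists, with large differences in red (higher in L2) or blue (lower), other genes in grey and a black bar at each list's median. DNA replication has the lowest median (-1.12), and 8 lists hold 0 large differences.

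Matrix and adhesion genes differed in which members were used. Of 26 integrin and basement membrane genes, Ppn and Tig (7.69%) were at least 4-fold higher and 0 lower, against 1.59% and 2.62% of all genes. The list's median difference was 0.66 (0.51 rescaled). On both scales 9 (34.6%) were called higher and 2 (7.69%) lower, against 15.4% and 13.2% of all genes. The collagen IV genes Col4a1 (15.01 in L2, 14.15 to 14.41 in CL8) and vkg (14.48, 13.11 to 13.63) were bright in both lines and called higher by 0.71 (0.79 rescaled) and 1.15 (1.32 rescaled). The laminin gene wb was higher by 2.05 (1.96 rescaled) and the integrin gene mew by 2.00 (2.26 rescaled), both at the edge of 4-fold. Ilk, which encodes integrin-linked kinase, was called lower, with a difference of -1.59 (-0.93 rescaled).

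Of 33 immunoglobulin and cadherin genes, 3 (9.09%) were at least 4-fold higher and 3 (9.09%) lower, against 1.59% and 2.62% of all genes. bdl, an immunoglobulin gene, read 8.12 in L2, 2.32 to 2.54 in CL8 and 2.74 to 3.43 in RasV12, at least 29.7-fold higher (limma adjusted p = 2.43e-06). Dscam1, a highly spliced immunoglobulin gene of neurons and hemocytes, read 10.34 in L2, 5.27, 4.997, 4.997 and 5.34 in CL8 and 10.92 to 11.70 in RasV12 (5.19, and 5.48 rescaled, limma adjusted p = 9.86e-06). beat-Ia was higher by 2.20 (2.11 rescaled). Towards CL8, beside Ama, the fasciclin gene Fas1 read 5.93 in L2, 11.20 to 11.56 in CL8 and 10.45 to 10.67 in RasV12 (-5.47, and -5.37 rescaled, limma adjusted p = 5.13e-07). The cadherin gene Cad87A was at least 7.14-fold lower in L2.

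Of 7 innexin genes, which encode gap junction channels, ogre was the 1 large difference (14.3% lower, against 2.62% of all genes). It read 3.35 in L2, 7.07, 7.45, 8.04 and 7.64 in CL8 and 11.86 to 12.11 in RasV12, at least 11.4-fold lower in L2 than in CL8 (limma adjusted p = 4.66e-05). Inx2, its usual partner, read 6.88 in L2 and 5.38 to 7.38 in CL8.

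DNA replication genes were lower in L2 more often than higher. Of 31 measured, 4 (12.9%) were at least 4-fold lower and 0 higher, against 2.62% and 1.59% of all genes. On both scales 14 (45.2%) were called lower and 1 higher, against 13.2% and 15.4% of all genes. All 31 were above the controls in CL8, whereas 6940 of all 10844 genes were above them in both lines. The shares of all genes are therefore not those of an equally bright group. The list's median difference was -1.12 (-0.50 rescaled), while genes above the controls in both lines had a median of -0.28 (0.0039 rescaled). Psf2, of the GINS complex that opens the helix with the MCM ring, read 3.55 in L2, 8.82, 8.83, 8.26 and 8.58 in CL8 and 5.42 to 5.72 in RasV12, at least 24.0-fold lower (limma adjusted p = 4e-06). PolA1 and PolA2, the polymerase alpha subunit genes, differed by -3.23 (-3.13 rescaled) and -2.16 (-2.20 rescaled), and Orc1, of the origin recognition complex, by -2.72 (-3.01 rescaled). Psf3, another GINS gene, was the 1 called higher, by 0.37 (0.69 rescaled).

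Of 31 cell cycle genes, Cdk2, which encodes the partner kinase of Cyclin E, was at least 4-fold lower, at 5.70 in L2, 8.70, 8.82, 8.62 and 7.64 in CL8 and 6.73 to 6.96 in RasV12 (-2.74, and -2.76 rescaled, limma adjusted p = 0.00113). This 1 gene was 3.23% of the list, near the 2.62% of all genes lower. A total of 3 (9.68%) were called higher and 7 (22.6%) lower, against 15.4% and 13.2% of all genes, and the median difference was -0.70 (-0.04 rescaled). All 31 were above the controls in both lines, which does not hold for all genes, so these shares are not of equally bright groups. CycB, a mitotic cyclin gene, differed by -1.62 (-0.96 rescaled). CycA, Cdk1, stg and polo are not analysed here.

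Counts of large differences in mitochondrial and chromatin genes are given here beside 1.59% higher and 2.62% lower over all genes. In the respiratory chain list of 31 genes there were 0, and its brightest members ox (14.29 in L2, 14.30 to 14.42 in CL8) and COX7A (13.94, 13.88 to 13.99) were not called. The 64 mitochondrial ribosomal protein genes, grouped by symbol after their values were seen, included 2 large differences towards CL8, mRpL3 and mRpS25, and 21 called lower and 0 higher on both scales (13.2% and 15.4% of all genes), with a median of -1.07 (-0.41 rescaled). All 64 were above the controls in L2 or CL8, which does not hold for all genes, so these shares are not of equally bright groups. Of 33 cytoplasmic ribosomal protein genes, 0 had a large difference. Sce, which encodes the ubiquitin ligase of the Polycomb complex, read 4.84 in L2, 7.12 to 7.64 in CL8 and 4.66 to 5.38 in RasV12 (-2.63, and -2.92 rescaled, limma adjusted p = 0.000266), the 1 large difference among 23 Polycomb and trithorax genes. That was 4.35% of the list.

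In the list of sex determination and dosage compensation, 2 of 14 genes (14.3%) were at least 4-fold lower in L2, against 2.62% of all genes. msl-3, a subunit gene of the complex that raises transcription of the male X chromosome, read 5.77 in L2, 8.73, 9.30, 8.73 and 8.69 in CL8 and 4.92 to 5.30 in RasV12 (-3.09, and -3.06 rescaled, limma adjusted p = 7.61e-05). ix, a Mediator subunit gene that acts with the sex determination factor Doublesex, differed by -2.56 (-2.83 rescaled). Other genes of the complex had no large difference, with msl-2 at 8.99 in L2 and 8.35 to 9.06 in CL8 and mof at 8.73 and 9.29 to 9.55.

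Detoxification genes differed in both directions. Of 47 glutathione S-transferase and UDP-glycosyltransferase genes, GstD2 was at least 8.60-fold higher in L2, where CL8 lay within the controls, and GstS1, GstT4 and GstO1 were lower. GstT4 was at least 16.3-fold lower, and GstO1 differed by -3.76 (-4.003 rescaled). Paralogs of this family share sequence, and reads of close copies by one probe set cannot be told apart here. Of 81 cytochrome P450 genes, grouped by symbol after their values were seen, 4 were at least 4-fold higher (Cyp6a23, Cyp6a9, Cyp28d1 and Cyp4p3) and 4 lower (Cyp6w1, Cyp6a20, Cyp6d5 and Cyp6v1). Of 20 Tweedle cuticle protein genes, grouped in the same way, 3 were at least 4-fold higher and 0 lower. Beside these counts, 1.59% of all genes were at least 4-fold higher and 2.62% lower.

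Of 13 chitinase genes and related growth factor genes, 1 was at least 4-fold higher in L2, 3 were lower and 9 had no large difference. The shares higher and lower were 7.69% and 23.1%, against 1.59% and 2.62% of all genes. Cht2, a chitinase gene, read 9.97 in L2, 4.60, 4.90, 4.30 and 2.86 in CL8 and 10.86 to 11.04 in RasV12, higher in L2 than in CL8 by 5.81 ± 0.64 (6.04 rescaled, limma adjusted p = 0.000312), with 3 of 4 CL8 arrays above the controls. The imaginal disc growth factor genes Idgf1 and Idgf2 were lower in L2. Idgf1 read 5.27 in L2, 9.41, 9.87, 10.19 and 10.08 in CL8 and 4.31 to 4.68 in RasV12 (-4.62, and -4.78 rescaled, limma adjusted p = 2.17e-05). Idgf2 read 7.47 in L2 and 11.13 to 11.66 in CL8 (-3.91, and -3.33 rescaled), and Cht10, another chitinase gene, differed by -2.36 (-2.28 rescaled). The other Cht10 probe sets differed by -1.38 (-1.79 rescaled) and 0.47 (-0.17 rescaled). Idgf3 and Idgf6 were called lower by less, with differences of -1.94 (-1.46 rescaled) and -1.42 (-1.02 rescaled).

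In glycolysis and related steps, Pepck1, a gluconeogenic gene, was the 1 large difference among 13 genes, at 7.63 in L2 and 4.00 to 5.05 in CL8 (2.95, and 3.13 rescaled, limma adjusted p = 0.000504). Pepck1 was 7.69% of the list, where 1.59% of all genes were higher and 2.62% lower. The Wnt, Hippo, ecdysone, insulin and TOR, heat shock and caspase lists held 0 large differences. Their brightest members were Axn (9.17 in L2, 9.10 to 9.55 in CL8) and wls (9.73, 7.97 to 9.42), Wbp2 (11.62, 11.30 to 11.86) and dco (9.82, 10.58 to 10.88), and Cth (13.17, 11.32 to 11.95) and ImpL2 (10.45, 9.64 to 10.51). For the last 3 lists they were chico (8.91, 10.07 to 10.41) with ImpL2, Hsc70-4 (15.49, 15.36 to 15.58) and Hsc70-5 (12.59, 12.27 to 12.84), and egr (10.56, 10.79 to 11.41) and Debcl (9.19, 11.12 to 11.45). Debcl, a Bcl-2 family gene, passed 4-fold on the deposited values only, with a difference of -2.12 (-1.44 rescaled).

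Other probe sets of the same genes mostly gave smaller differences than the brightest, and for genes lower in L2 many were not lower. For 42 genes higher in L2 the array holds further probe sets, 41 of them above the controls, and 29 of these were higher on both scales and 6 met every criterion of a large difference. For 39 genes lower in L2 there were 25 such probe sets, of which 9 were lower on both scales, 2 met every criterion and 1, of tkv, met them in the opposite direction. The median difference of the further probe sets was 1.01 for the higher genes and 0.27 for the lower genes, while their genes had medians of 2.75 and -3.14. These further probe sets were dimmer by choice. Above the upper quartile of the brighter line's arrays, a brightness limit chosen after seeing the data, 3 and 1 were left, of which 2 and 0 went the way of their genes.

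Large differences were found on every chromosome arm. Over genes above the controls in both lines the median difference was -0.40 on X, -0.21 on 2L, -0.37 on 2R, -0.05 on 3L, -0.32 on 3R and -0.18 on 4, against -0.28 over all, and rescaled these were -0.10, 0.0072, -0.02, 0.12, -0.02 and 0.15, against 0.0039. The arm with the highest median among the large arms, 3L, kept that place on both scales. Its median was -0.02 without CL8 array 2, and that of chromosome 4 was -0.37 without CL8 array 4. On 2R, 3 neighbouring genes, CG42565, CG4250 and CG30269, were all at least 4-fold lower in L2, by 3.43 to 7.72 on the log2 scale. At the edge of the 4-fold criterion, CG11400 (2.04, and 2.00 rescaled) was just inside and CG8677 (2.00, and 2.48 rescaled) just outside towards L2. Towards CL8, vib (-2.66, and -2.01 rescaled) was just inside and nuf (-2.59, and -1.99 rescaled) just outside.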

How the data were processed

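Affymetrix DrosGenome1 arrays of 3 RasV12, 4 CL8 and 1 L2 sample were grouped by their titles. The authors deposited log2 expression values computed with GCRMA, per the series' design text, which corrects probe intensities for background and normalizes them across arrays. The sources used here do not say if the 8 arrays shared 1 GCRMA run. Depth has no meaning for arrays, and their number limits the precision. A median standard error of 0.167 was found for the log2 difference.

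Of 13966 tested probe sets (44 controls set aside), 12443 have 1 gene in the platform annotation, 327 several and 1196 none, and 12394 matched RefSeq (Release 6 plus ISO1 MT), used for names, arms and neighbours. The brightest probe set on average stands for its gene. All 8 arrays were fitted with limma 3.58.1 in R 4.3.3 (lmFit, contrast L2 minus CL8, eBayes), p-values being adjusted by Benjamini-Hochberg across the 13966, and again after quantile normalization (rescaled). The script was tested on simulated data.

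Background controls are 23 control probe sets of other species. "At least" folds set the brighter line's mean against, per array, the higher of the dim gene's value and the lowest level counted as above background, the highest control. Named are the 12 genes (and 2 CG genes) with the largest difference per direction, ranked by the smaller size of both scales, up to 5 large differences per list, or the 2 brightest members of a list with none, and cell type markers near the controls. Further list members and the gene families by symbol were chosen after their values were seen. The members and all 41 lists were chosen with earlier results of these data known. Alternatives were other scalings, thresholds, filters, moderation, arrays left out, and the mean over a gene's probe sets. List genes without a match were left out.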

Additional observations from a re-analysis of the deposited data

Results flagged for a closer look

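Among the 98 named genes, 9 had a CL8 array that stood apart from the other 3 by Dixon's criterion at the 95% level, which chance alone meets in about 1 of 20 groups. CL8 array 2 was the highest for Ppn (5.06), msl-3 (9.30) and twi (3.20), and the lowest for drk (10.41). CL8 array 1 was the lowest for PPO1 (4.19), Cyp6a23 (3.19) and rn (2.74), and the highest for et (2.64). CL8 array 4 was the highest for Argk1 (5.85). The values for rn, et and twi lie within the background controls. Except for drk, which was not called, the L2 array was outside the whole CL8 range, as the rule for large differences requires. Why these CL8 arrays stood apart was not tested.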

How the results depend on the processing

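The count of 456 large differences (172 higher in L2, 284 lower; 37.7% higher) was 448 to 471 without each CL8 array in turn, with 432 to 438 of the same genes. It was 459 against CL8 arrays 3 and 4 and 517 against arrays 1 and 2. Required on the deposited scale only, the lower genes numbered 428. With arrays centred on their medians in place of quantile normalization, the count was 1214 (112 higher, 1102 lower; 9.23% higher), of which 396 were shared, and the median of all genes moved from 0.25 to -0.43. A least log2 difference of 1 gave 1327 (517 higher, 810 lower) and of 3 gave 213 (90 and 123). The 8636 limma calls became 5245 rescaled and 5704 among probe sets above the controls, and their share higher in L2, 61.9%, became 53.7% rescaled, 44.2% above the controls and 12.9% centred. All 75 named genes with a large difference kept their direction and call under centring, the 5 arrays of both lines alone, and each CL8 array or pair left out. Their direction was bound to hold, since the rule put L2 outside all 4 CL8 arrays. Centring shifts every gene by the same amount, less than the 2 required, so only the call could have changed. Centring turned the sign of 12 of 98 named genes, 0 of them with a large difference. These included serp (0.52 to -0.15), within the controls, which was called both ways, and Act87E (0.30 to -0.37), COX7A (0.01 to -0.66), Wbp2 (0.10 to -0.57) and Hsc70-4 (0.05 to -0.62), which were called only when centred. Under the mean over a gene's probe sets, Mkp3 lost its call (5.39 to 1.82), 16 other genes kept theirs at smaller sizes (Argk1 8.63 to 4.58, ClC-a 6.29 to 2.26, Antp -5.16 to -2.30), and 7 of the 17, among them Cht10 (-1.09), Traf4 (1.43) and Pvf3 (1.4985), fell under the 4-fold size.

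Arm medians rested on the scale: rescaled they were -0.0962 (X), 0.0072 (2L), -0.0213 (2R), 0.12 (3L), -0.0212 (3R), 0.148 (4) and 0.0039 (all). Without each CL8 array in turn they were -0.3950 to -0.3736 (X), -0.0539 to -0.0202 (3L), -0.3418 to -0.3275 (3R), -0.3741 to -0.1430 (4) and -0.2867 to -0.2675 (all), and 2L and 2R moved by less than the spread between CL8 arrays.
No paired analysis was possible because L2 has 1 array that carries no replicate number, so the groups share fewer than 2 numbers.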
